A study of Mus musculus with 16 samples.

Results

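Stress response high macrophages were the myeloid cells of each culture in the top 10% by the summed counts of 6 genes, *Slc7a11*, *Trib3*, *Ddit3*, *Srxn1*, *Procr* and *Clec4e*, in cultures of mouse bone marrow stromal cells. Myeloid cells were barcodes with at least 500 genes, under 20% mitochondrial unique molecular identifiers (UMIs, each a counted RNA molecule), at least 80 UMIs of *Lyz2*, *Tyrobp*, *Fcer1g*, *C1qa*, *C1qb* and *C1qc* per 10000, and under 25 UMIs of the stromal genes *Col1a1*, *Col1a2*, *Sparc*, *Tagln* and *Tpm2* per 10000. Within each sample the cells were ranked by the 6-gene score, which is the summed UMIs of the 6 genes per 10000, and the top 10% with a score above 0 were taken. This gave 1374 stress response high cells of 13823 myeloid cells among 17793 cells in 15 samples. In the 11 tagged cultures on which the tests rest, there were 1204 stress response high cells of 12099 myeloid cells, and the other 10895 myeloid cells of the same cultures were the comparison.

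Single-cell RNA-Seq was measured in cultures grown from the marrow stroma of male littermates 12 weeks of age, kept in osteoblastic medium with 10 mM β-glycerophosphate for 21 days, and the myeloid cells are those that persist in such cultures. Groups were WT (*Dmp1*+/+ *Fgf23* fl/fl, Cre-negative), Fgf23cKO (*Dmp1*+/+ *Fgf23* fl/fl, Cre-positive), Dmp1KO (*Dmp1*-/- *Fgf23* fl/fl, Cre-negative) and Dmp1KO/Fgf23cKO (*Dmp1*-/- *Fgf23* fl/fl, Cre-positive), so that the floxed *Fgf23* allele was carried by every group. Cre was driven by the *Dmp1* promoter, which is active in the osteoblast lineage, whereas *Dmp1* was deleted in all cells. For each genotype, tagged cultures (3 WT, 3 Fgf23cKO, 2 Dmp1KO and 3 Dmp1KO/Fgf23cKO with counts used here) were pooled in a single droplet reaction, so that the effect of genotype cannot be told apart from that of the reaction, and sample 4 of each genotype was read as the untagged cells of the same pool and kept out of the tests. The counts of the first Dmp1KO culture were not used here. No barcode was listed in more than 1 sample of a genotype, and 35 were listed in samples of different genotypes. Depth differed between genotypes, with median UMIs per cell of 7190, 7137 and 7275.5 in the WT cultures, 33395, 34988 and 29752.5 in Fgf23cKO, 22186 and 20016.5 in Dmp1KO and 33881, 32378 and 33601 in Dmp1KO/Fgf23cKO.

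Most of the 6 genes belong to transcriptional programs that cells switch on under stress. In the integrated stress response, kinases that sense amino acid shortage, unfolded protein, heme loss or double-stranded RNA phosphorylate eIF2α, which lowers general translation and favors that of ATF4. ATF4 and its partner CHOP (encoded by *Ddit3*) then induce genes of amino acid uptake and synthesis, tRNA charging and feedback, among them *Trib3*, a pseudokinase that restrains ATF4 and AKT. NRF2 is released from KEAP1 by electrophiles and oxidants and induces genes of glutathione, thioredoxin and iron handling, such as *Srxn1*, the sulfiredoxin that repairs overoxidized peroxiredoxins. *Slc7a11*, the cystine importer of system xc-, is a target of both ATF4 and NRF2. *Clec4e* encodes Mincle, a C-type lectin receptor for microbial glycolipids and for a product of dying cells, and *Procr* encodes the endothelial protein C receptor.

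The DNA elements of these programs could be read in the promoters, taken here as the 250 bases before to the 50 bases after the RefSeq start of each gene (GRCm38.p6, which corresponds to mm10). The core TGATGNAA of the C/EBP-ATF response element, which ATF4 and CHOP recognize, and the core TGACNNNGC of the antioxidant response element, which NRF2 recognizes, were searched on both strands. TGATGNAA was found in 3.97% and TGACNNNGC in 12.4% of all 32851 promoters. The matches in the score genes are shown, with those of *Asns* and *Chac1*, the 2 ATF4 target genes that were most raised by fold among the stress response high cells, each on the strand of its gene and with the matched letters in capitals.
*Slc7a11*, chr3:50443662-50443689, minus strand: ctcatgtggcTGATGCAAacctggagaa
*Slc7a11*, chr3:50443643-50443670, minus strand, element on the opposite strand: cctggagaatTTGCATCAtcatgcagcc
*Trib3*, chr2:152344029-152344056, minus strand, element on the opposite strand: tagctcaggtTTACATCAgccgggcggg
*Srxn1*, chr2:152105542-152105570, plus strand, element on the opposite strand: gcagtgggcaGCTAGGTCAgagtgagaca
*Procr*, chr2:155751053-155751081, plus strand: cccaccccccTGACTCAGCggcgacctac
*Asns*, chr6:7693215-7693242, minus strand: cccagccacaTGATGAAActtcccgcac
*Asns*, chr6:7693363-7693391, minus strand, element on the opposite strand: tatcctgcctGCAGTGTCAcagcacctta
*Chac1*, chr2:119351039-119351066, plus strand, element on the opposite strand: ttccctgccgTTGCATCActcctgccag

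*Slc7a11* carried TGATGNAA at 2 positions, starting 66 and 47 bases before its start, and *Trib3* carried it 14 bases after its start, within the transcribed part. *Srxn1* and *Procr* carried TGACNNNGC, 28 bases after the start in *Srxn1* and 154 bases before it in *Procr*, and *Asns* held both elements. *Ddit3* and *Clec4e* held neither core in this window. Of the ATF4 and CHOP target genes listed below, 7 of the 19 with a promoter in the table held TGATGNAA (36.8%), as did 5 of 8 genes of tRNA charging (62.5%) and 0 of 18 NRF2 target genes. TGACNNNGC stood in 8 of 18 promoters of the NRF2 list (44.4%), in 6 of 19 of the ATF4 list (31.6%) and in 3 of 8 of the tRNA list (37.5%). These matches describe the letters in the window and do not show binding.

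The levels of the 6 genes chose the cells, so they are given as a description without a test. Levels are given as CPM, the UMIs of a gene scaled to 1000000 UMIs of all genes, from counts summed over the cells of a culture, and 3 values in a row are the lowest, the median and the highest of the 11 tagged cultures. *Slc7a11* (ENSMUSG00000027737) stood at 156, 313 and 596 in the stress response high cells and at 19.7, 27.3 and 41.6 in the other myeloid cells. *Trib3* (ENSMUSG00000032715) stood at 25.0, 54.7 and 94.1 against 0.777, 2.36 and 9.60. For neither gene did the ranges of the 2 sets of cells overlap. *Ddit3*, whose 2 identifiers in the files were summed, was at 198, 311 and 506 against 25.5, 29.4 and 59.9. *Srxn1* was at 189, 307 and 422 against 53.6, 64.7 and 80.2. Both genes were higher in each of the 11 cultures and, again, without overlap. *Procr* was at 51.8, 88.6 and 255 against 4.57, 8.05 and 24.9. *Clec4e* was at 56.7, 109.7 and 289 against 15.6, 20.9 and 29.6. Their ranges were also apart, although the highest culture exceeded the lowest by a larger fold within the stress response high cells than for *Srxn1*.

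**Figure D1:**
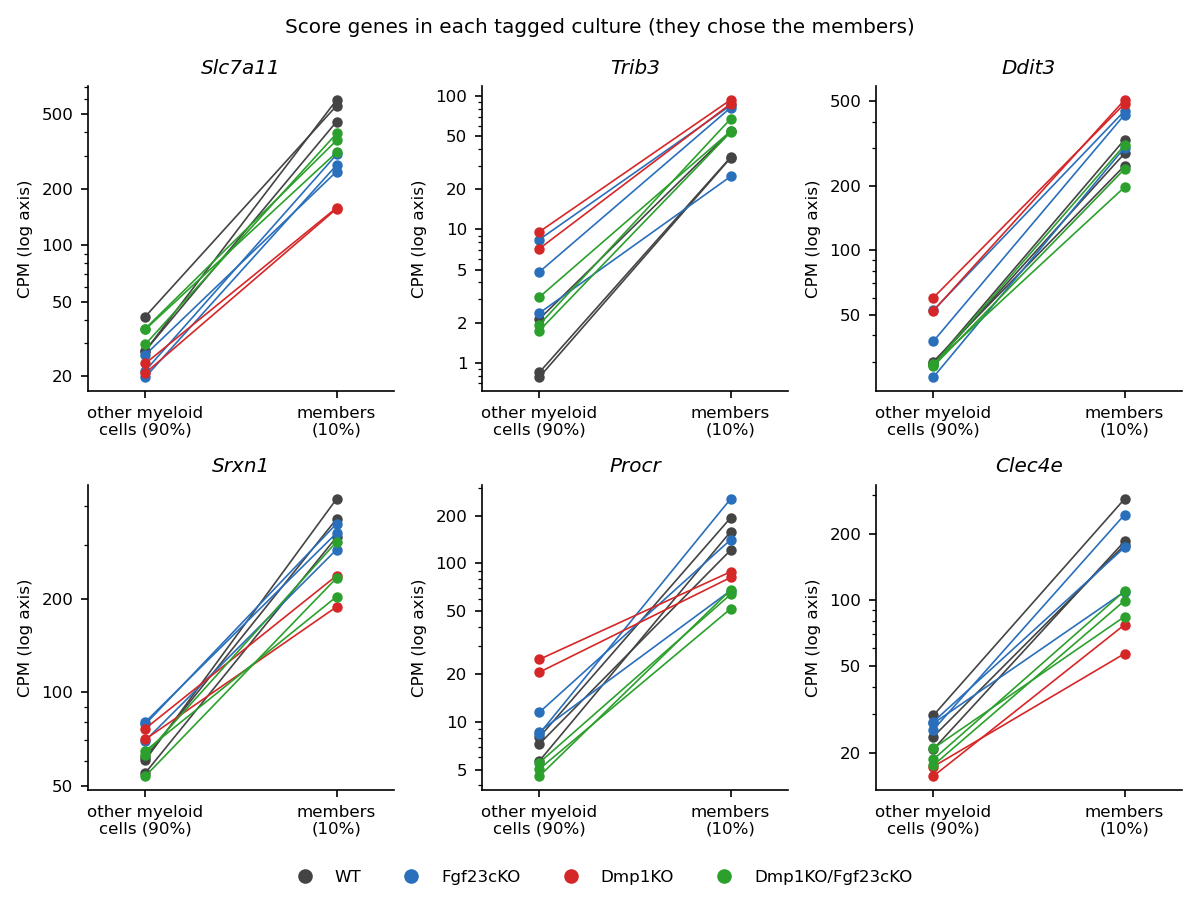
Levels of the 6 score genes (CPM, log axis) in the other myeloid cells and in the stress response high cells, with a line for each of the 11 tagged cultures, colored by genotype. Every line rises, as the choice of the cells requires, and in Dmp1KO Slc7a11 and Clec4e sit lowest and Ddit3 highest among the stress response high cells.

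The score is a range and not a separate class. The lowest score inside the top 10% lay between 5.37 and 9.24 per 10000 in the tagged cultures, and the first cell outside was close to it, for example 9.24 inside and 9.17 outside in the first WT culture. Over all samples, 209 of the stress response high cells lay within 10% above the limit and 246 other myeloid cells within 10% below it. In WT, where cells were shallow, the median stress response high cell held 8 to 11 score UMIs, against 20 to 48 in the other genotypes, and 33 of the 1204 cells held under 3. The stress response high cells held 32.8 to 53.4% of all score UMIs of the myeloid cells of their culture. *Ddit3* gave the most score UMIs in 489 of the 1204 cells (40.6%), *Slc7a11* in 327 (27.2%), *Srxn1* in 243 (20.2%), *Clec4e* in 101 (8.39%), *Procr* in 33 (2.74%) and *Trib3* in 11 (0.914%). At least 4 of the 6 genes were detected in 655 of the 1204 cells (54.4%) and in 1151 of the other 10895 (10.6%).

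Whether the 6 genes rise in the same cells was measured by leaving out each gene in turn: the top 10% was chosen by the other 5 genes, and the gene left out was compared between those cells and the rest. *Trib3* was 3.75 ± 0.53 higher on the log2 scale (mean and SD, n = 11 cultures, 13.5-fold), *Procr* 3.01 ± 1.02 (8.07-fold), *Slc7a11* 2.35 ± 0.59 (5.10-fold), *Ddit3* 1.99 ± 0.44 (3.96-fold), *Srxn1* 1.66 ± 0.46 (3.15-fold) and *Clec4e* 1.50 ± 0.63 (2.83-fold). Each of the 6 was higher in 11 of 11 cultures. Since the 6 genes were put together with earlier results of these data known, these values are a description, with no test. The smallest single value was that of *Clec4e* in the third Fgf23cKO culture, 0.41 on the log2 scale. When the cells were chosen on a random part of their UMIs and scored on the part not used, the score of the chosen cells was 2.78 ± 0.31 higher on the log2 scale (SD, n = 11, 6.87-fold), against 3.02 on the part that chose them, and 794 of 1204 cells (65.9%) were chosen by both parts. With each cell thinned to 3000 UMIs the difference was 2.30 and 36.8% of the cells were chosen by both, so at that depth the membership of a single cell is uncertain.

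Pairs of genes differed in how far they rose together, as read by choosing the top 10% of cells on 1 gene and measuring another. Cells without a UMI of the choosing gene were not taken, so a sparse gene chose fewer than 10%. In the second WT culture, for example, *Trib3* was detected in 18.1% of the stress response high and 0.687% of the other myeloid cells. The choices thus rest on sets of unlike size, which vary with gene and depth. Cells chosen by *Ddit3* had *Trib3* 4.39 higher on the log2 scale, and cells chosen by *Trib3* had *Ddit3* 3.10 higher, in 11 of 11 cultures each. Cells chosen by *Srxn1* had *Procr* 2.99 and *Slc7a11* 2.50 higher. Cells chosen by *Procr* had *Trib3* 2.30, *Slc7a11* 1.99, *Ddit3* 1.78 and *Srxn1* 1.71 higher. Cells chosen by *Slc7a11* had *Procr* 2.24, *Trib3* 1.74, *Srxn1* 1.51 and *Ddit3* 1.01 higher. The 5 lowest values all involved *Clec4e*. It was 0.57 higher in cells chosen by *Procr* (in 7 of 11 cultures), 0.75 in those chosen by *Trib3* and 0.86 in those chosen by *Ddit3* (both in 10 of 11), and 1.59 in those chosen by *Slc7a11* (in 11 of 11). These values share cells and libraries and are descriptions.

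**Figure D2:**
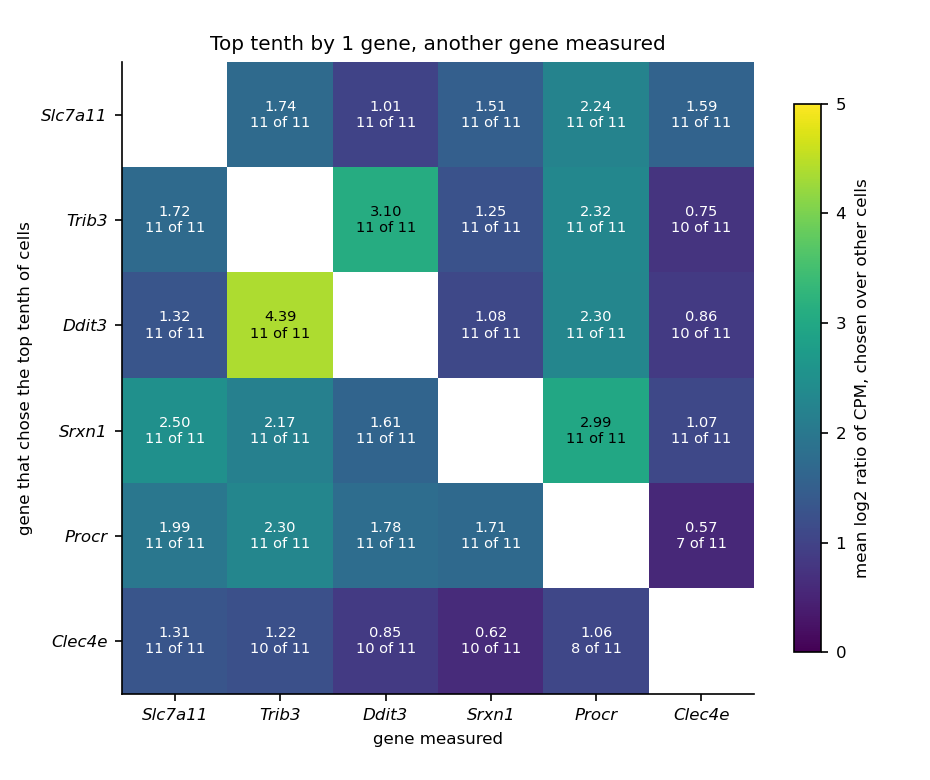
Mean log2 ratio over the 11 tagged cultures of each score gene (columns) between myeloid cells chosen by a single score gene (rows) and the rest. Chosen cells were the top 10% by that gene without those that lacked a UMI of it, so sparse genes chose fewer. The number of cultures above 0 stands under each value. The Ddit3 and Trib3 pair holds the 2 highest values, 4.39 and 3.10, and the 5 lowest values, 0.57 to 0.86, lie in the Clec4e column and row.

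The label of macrophage was checked against markers that neither the myeloid limits nor the score used. The summed level of 11 macrophage markers (*Cd68*, *Adgre1*, *Csf1r*, *Cd14*, *Fcgr3*, *Fcgr1*, *Itgam*, *Aif1*, *Ctss*, *Mertk* and *Ms4a7*) was 5955, 6722 and 7640 in the stress response high cells and 6062, 7377 and 8041 in the other myeloid cells, lower in 9 of 11 cultures. None of the 11 was at 0, *Ctss* was the most abundant, and the median cell of a culture held 55.9 to 79.4 UMIs of the list per 10000. Thus the cells carried the macrophage markers at levels that overlapped those of the other myeloid cells. Other cell types were near the limit of detection: markers of B, T or NK, mast, erythroid and megakaryocyte cells and adipocytes each summed to at most 1.96 CPM in any culture, and those of dendritic cells to at most 4.54. Neutrophil markers summed to 3.62, 14.5 and 22.2, mostly *S100a8*, with *S100a9*, *Ly6g*, *Retnlg*, *Mpo* and *Elane* at 0, against 4.31, 10.3 and 20.9 in the other myeloid cells, higher in 8 of 11 cultures. Monocyte markers summed to 18.9, 32.6 and 82.9 against 12.8, 22.0 and 61.2, higher in 9 of 11 cultures and led by *Napsa*, with *Ly6c2* at 0. Stem or progenitor markers summed to at most 14.7, led by *Cd34*, with *Hlf* at 0.

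Stromal or osteoblast markers summed to 32.3, 102 and 122 CPM in the stress response high cells and to 36.6, 101 and 112 in the other myeloid cells, lower in 8 of 11 cultures, with *Ibsp* the most abundant. The ranges of the 2 sets of cells overlapped over nearly their whole length. Endothelial markers summed to 4.35, 8.52 and 13.6 against 2.63, 4.40 and 7.27, higher in 11 of 11 cultures, mostly from *Kdr*. Osteoclast markers were higher as a sum, at 620.4, 813 and 1473 against 185, 313 and 907, higher in 11 of 11 cultures. *Atp6v0d2*, a subunit of the proton pump of osteoclasts and lipid-laden macrophages, was the most abundant of them, *Calcr*, the calcitonin receptor of mature osteoclasts, was at 0, and *Mmp9* was lower (log2 difference -1.60 ± 0.50). Gene by gene the list was split: of 7 tested, 3 were higher and 2 lower, with a median log2 difference of -0.08. How far cells on the way to osteoclasts add to the differences below was not tested. The authors had removed doublets that carried tags of different cultures, and doublets of cells from the same culture were not called here.

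Stress response high cells held fewer transcripts of the cell cycle. Median UMIs per cell were 29903 against 34886.5 in the other myeloid cells (medians over cultures), a mean change of -6.67%, lower in 10 of 11 cultures. The score divides by the UMIs of a cell, so the choice itself can favor cells with few UMIs. This value is therefore a description, with no test. With the untagged samples included the mean change was -20.8%. On the log2 scale, sample 4 of Dmp1KO/Fgf23cKO, with 13 stress response high cells, stood at -3.15 and the median of the 15 samples at -0.117. Mitochondrial UMIs were 2.78% against 3.63%, a difference of -0.386 ± 0.226 percentage points (SD, n = 11), and UMIs of ribosomal proteins 8.23% against 10.2%, a difference of -1.42 ± 0.66 points. The summed level of 20 S phase genes was 362 against 602 CPM, and that of 20 genes of G2 and mitosis 155 against 754. These 4 were lower in 11 of 11 cultures, with p = 0.000977, the smallest that 11 cultures can give, and an adjusted p of 0.00146 each in the same exact permutation test. With cells thinned to 3000 UMIs, the change of the S phase genes was -25.4% in place of -43.1%, and that of the G2 and mitosis genes -61.1% in place of -78.9%, the latter lower in 10 of 11 cultures. The study describes cells from several mice of each genotype, but the labels do not tie a culture to a mouse, so p values measure only the spread between these cultures. Genes detected per cell changed by -2.53% (p = 0.0625, exact permutation test, not past the threshold of 0.05 used for these properties), and by -0.434% in thinned cells (p = 0.402, exact permutation test). Cells with at least 2 UMIs of the G2 and mitosis genes, here called cycling cells, made up 367 of the 1204 stress response high cells (30.5%) and 5335 of the other 10895 (49.0%), a lower share in 11 of 11 cultures. A limit of 2 UMIs is reached more easily in deeper cells, and depth differed with genotype. Among the stress response high cells the share ranged from 10.1% in a WT culture to 63.6% in an Fgf23cKO culture. The part of depth in this range was not tested.

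Genes were compared between the stress response high cells and the other myeloid cells of the same culture with edgeR's quasi-likelihood test on summed counts, with the culture as a block and p values adjusted by the Benjamini-Hochberg method over 12791 genes. The 6 score genes were part of the fit and of its counts over all genes, where all 6 are among the genes higher in every culture, but nothing is read from them, and none of the genes and lists described below was used by the score, although they were read in the same cells. At an adjusted p under 0.1, the threshold used for all calls across genes, 3256 genes were higher (25.5%) and 3924 lower (30.7%), 56.1% in all, with a median log2 difference of all genes of -0.03. Calls were thus common, and a share of a gene list is to be read against these percentages. Higher in every culture were 11.5% of genes and lower in every culture 12.7%. With cycling cells left out of both sets, a choice made after seeing the data, 22.9% were higher and 25.4% lower of 11524 genes, and of 6757 earlier calls that could be tested, 5049 kept their call and direction and 159 turned.

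Among the 15 genes with the largest rises that were higher in every culture and averaged at least 20 CPM, the largest was *Cav1*, caveolin 1, a membrane scaffold. It stood at 20.1, 70.1 and 129 in the stress response high cells and 2.87, 9.14 and 20.1 in the other myeloid cells, a log2 difference of 3.32 ± 0.18 (SE, adjusted p = 3.50e-10). *Mmp12*, the macrophage elastase, stood at 1479.5, 2833 and 4072 against 172, 282 and 2108 (2.76 ± 0.29). The groups touch or overlap for both genes, because the highest cultures of the other cells, Dmp1KO for *Mmp12*, reached the lowest of the stress response high cells. *Gadd45a*, a growth arrest and DNA damage gene that ATF4 also induces, stood at 55.8, 93.6 and 146 against 15.5, 20.2 and 22.6 (2.27 ± 0.12, adjusted p = 1.95e-10). *Asns*, asparagine synthetase, stood at 32.6, 47.1 and 80.2 against 4.92, 9.19 and 27.2 (2.01 ± 0.13). *Cd274*, which encodes the checkpoint ligand PD-L1, stood at 30.7, 55.9 and 98.3 against 7.62, 10.5 and 28.9 (2.07 ± 0.18). For these 3 genes no culture overlapped.

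*Il1rn*, the antagonist of the interleukin 1 receptor, rose from 11.6, 16.5 and 20.5 to 20.5, 101 and 297 (2.29 ± 0.30). *Il7r*, the receptor of interleukin 7, stood at 83.4, 169.9 and 401 against 11.3, 28.7 and 271 (2.15 ± 0.25), with overlap. *Atp6v0d2* stood at 416, 639 and 1095 against 77.5, 110.2 and 579 (2.09 ± 0.17), again overlapping through Dmp1KO. The remaining rises were *Pdpn* (2.55 ± 0.31), the podoplanin that binds CLEC2, *Flrt2* (2.31 ± 0.28), *Plpp3* (2.27 ± 0.24), which dephosphorylates lysophosphatidic acid, the syndecan *Sdc1* (2.21 ± 0.21), the ubiquitin ligase subunit *Fbxo32* (2.02 ± 0.15), the aminopeptidase *Anpep* (1.85 ± 0.18) and the cGMP-dependent kinase *Prkg1* (1.81 ± 0.15). *Sdc1*, *Anpep* and *Prkg1* did not overlap between the sets of cells.

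Of the 10 largest falls, 5 were genes of mitosis or DNA replication: *Cenpf* (-2.45 ± 0.28), *Ube2c* (-2.31 ± 0.30), *Birc5* (-2.26 ± 0.18), *Cenpe* (-2.11 ± 0.19) and *Top2a* (-2.07 ± 0.24), joined by *Pclaf* (-2.19 ± 0.25), a partner of PCNA, and *Rad51b* (-2.15 ± 0.14) of recombination repair. *Birc5*, survivin, stood at 4.65, 9.85 and 23.0 against 35.4, 59.8 and 87.3 without overlap. The first 5 belong to the list that defines cycling cells, so their values without those cells are fixed by that choice and are not given. *Pclaf* and *Rad51b* stood at -1.41 and -1.76 without cycling cells. *P2ry12*, a purinergic receptor known from microglia, stood at 5.22, 8.71 and 38.7 against 20.8, 76.2 and 115 (-2.11 ± 0.15, and -2.38 without cycling cells). *Hdac9*, a class IIa histone deacetylase, stood at 12.4, 37.6 and 87.8 against 131, 172 and 257 (-2.10 ± 0.15, and -2.06 without cycling cells). *Fgd2*, a CDC42 exchange factor, stood at 3.91, 8.71 and 19.5 against 22.1, 41.9 and 48.2 (-2.07 ± 0.13, and -2.06). *Hdac9* and *Fgd2* were lower in every culture without overlap.

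**Figure D3:**
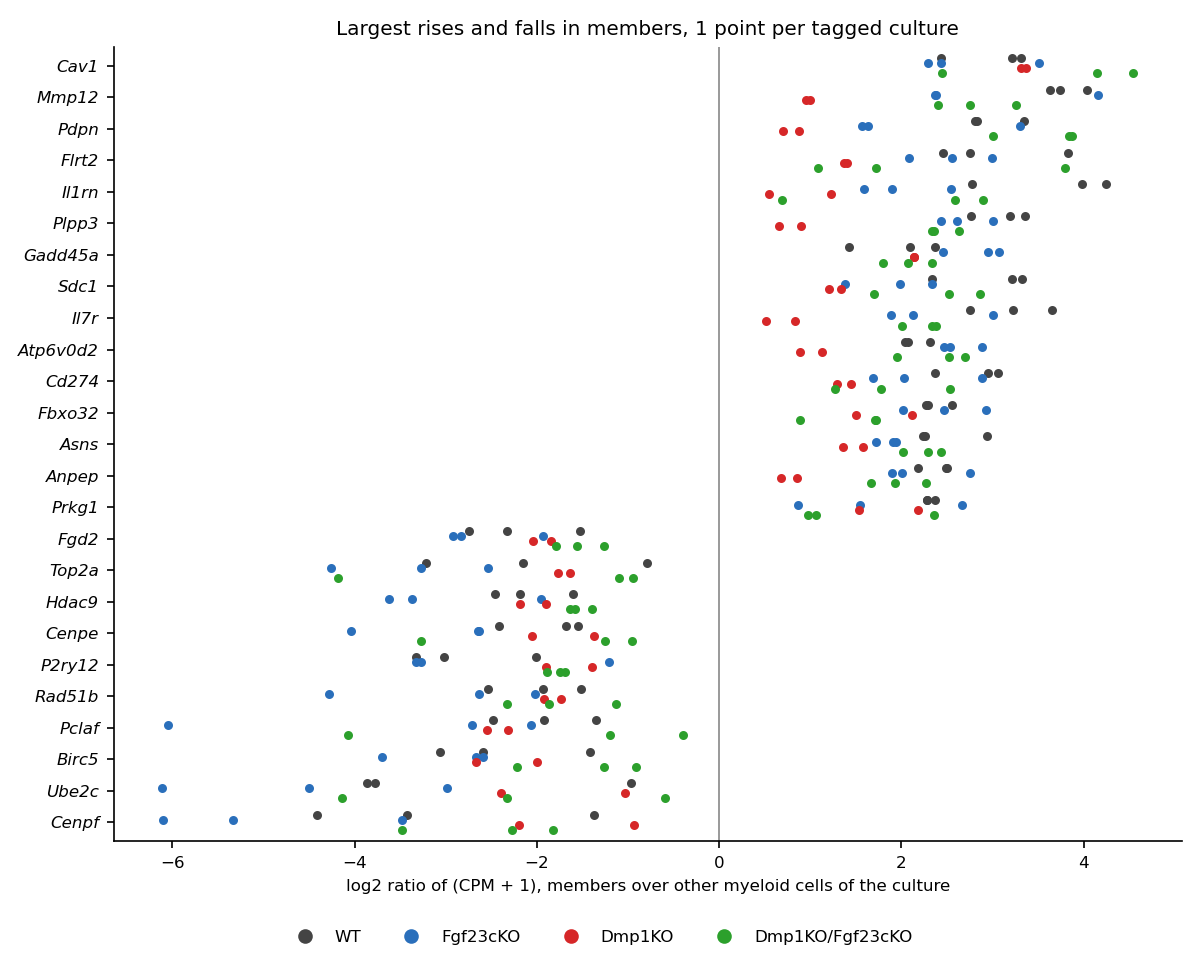
Log2 ratio of stress response high to other myeloid cells, of CPM plus 1, for the 15 largest rises and 10 largest falls, with a point for each of the 11 tagged cultures colored by genotype. Every point lies on its gene's side of 0, as the choice of the genes requires, and the Dmp1KO points of Mmp12, Plpp3 and Il7r lie closest to 0.

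Genes that ATF4 and CHOP induce rose together beyond the score. Of 21 tested, 18 were higher and 1, *Jdp2*, lower, with a median log2 difference of 1.01 against -0.03 over all genes tested. The largest were *Chac1* (2.49 ± 0.28), which degrades glutathione, *Asns*, the neutral amino acid carrier *Slc1a4* (1.74 ± 0.33, 2.10 CPM in the median culture) and the transcription factor *Atf5* (1.47 ± 0.08). *Atf5* stood at 51.4, 92.7 and 149 against 17.9, 34.8 and 42.0, with no overlap, whereas *Chac1* was near the limit at 1.36, 5.42 and 10.7 against 0.417, 0.707 and 1.67. All 13 genes of tRNA charging tested, the cytosolic aminoacyl-tRNA synthetases and the exporter *Xpot*, were higher, with a median of 0.51. *Aars*, for alanine, stood at 91.4, 118 and 178 against 41.5, 47.0 and 62.0 (1.34 ± 0.06), and *Sars*, for serine, at 177, 274 and 422 against 89.7, 123 and 173 (1.17 ± 0.06). Neither overlapped. *Cars* (0.98 ± 0.08) and *Wars* (0.87 ± 0.07) followed. Of 8 genes of serine, proline and one-carbon synthesis, 4 were higher and 2 lower (median 0.21), led by *Phgdh* (2.49 ± 0.37), the first step of serine synthesis, the mitochondrial folate enzyme *Mthfd2* (1.36 ± 0.12) and *Aldh18a1* (0.67 ± 0.14). *Psat1*, the next step of serine synthesis, was lower (-0.32 ± 0.15), and its sign turned to 0.32, not past the threshold, when cycling cells were left out.

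NRF2 target genes rose too, with 20 of 23 higher and 1, *G6pdx*, lower, and a median of 0.64. *Sqstm1*, the autophagy receptor p62, which also binds KEAP1, stood at 787, 958 and 1328 against 212, 275 and 336 (1.80 ± 0.09, adjusted p = 1.65e-10). *Txnrd1*, thioredoxin reductase, stood at 364, 616 and 707 against 219, 285 and 318 (1.05 ± 0.09). Neither gene overlapped between the sets of cells. The esterase *Esd* (1.38 ± 0.09) and the peroxiredoxin *Prdx1* (1.35 ± 0.11) were among the most raised, *Prdx1* from 2113, 2628 and 4724 to 4685, 6850.3 and 12403. In the list of ATF4 targets, 14 of 17 tested were higher when cells were thinned to 3000 UMIs and 17 of 19 when cycling cells were left out, and in the NRF2 list 19 of 23 in both. In thinned cells 1469 of all 9451 genes tested were higher and 1667 lower.

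Chaperones of the endoplasmic reticulum, targets of the other arms of the unfolded protein response, did not rise with them. None of the 19 tested was higher and 15 were lower, with a median of -0.49. *Hsp90b1*, which encodes GRP94, stood at 165, 267 and 365 against 426, 512 and 569.7 (-0.93 ± 0.09). *Pdia3*, a disulfide isomerase, stood at 141, 191 and 237 against 302, 322 and 352 (-0.79 ± 0.07). Both were lower in 11 of 11 cultures without overlap, and *Sdf2l1* (-0.87 ± 0.10) and *Pdia6* (-0.82 ± 0.08) fell as well. In thinned cells 1 was higher and 12 lower, and without cycling cells 0 and 12. Cytosolic heat shock proteins were split, with 5 of 13 higher, 2 lower and a median of 0.17. *Hsph1* (0.46 ± 0.08), *Bag3* (0.43 ± 0.08) and *Hsp90aa1* (0.35 ± 0.08) were higher and *Hspa8* (-0.34 ± 0.06) was lower.

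Immediate early genes, which rise within minutes of a signal and also during the dissociation of tissue, were split, with 6 of 16 higher and 9 lower (median -0.28). *Klf2* (-1.14 ± 0.15), *Nr4a1* (-0.91 ± 0.15) and *Ier3* (-0.87 ± 0.12) were lower and *Jund* (0.85 ± 0.05) was higher. Of 10 p53 target genes, 6 were higher and 3 lower (median 0.39), with *Plk2* at 122, 160.2 and 193 against 46.8, 61.0 and 120.2 (1.19 ± 0.11) and *Mdm2* at 125, 171 and 287 against 73.5, 87.4 and 102 (1.01 ± 0.10). Both ranges were apart. The cell cycle inhibitor *Cdkn1a* was higher (0.54 ± 0.05) and *Sesn1* lower (-1.02 ± 0.07). Among 19 genes of hypoxia and glycolysis, 8 were higher and 7 lower (median 0.08). *Ndrg1* (1.98 ± 0.15), the phosphofructokinase *Pfkp* (1.26 ± 0.11) and the growth factor *Vegfa* (1.23 ± 0.09) rose, and *Pdk1* (-1.23 ± 0.16), the kinase that keeps pyruvate out of mitochondria, fell.

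Inflammatory genes moved both ways. Of 18 NF-kB target genes, 8 were higher and 4 lower, with a median of 0.04 (5 and 7 without cycling cells). Beside *Il1rn*, the itaconate-producing enzyme *Acod1* was higher (2.28 ± 0.39, at 0.652, 8.95 and 23.8 against 0.607, 1.21 and 2.93), and so was *Cxcl3* (2.02 ± 0.62), although it was at most 4.65 CPM. *Ccl2*, the chemokine that draws monocytes, stood at 51.6, 186 and 485 against 311, 770.2 and 922 (-1.86 ± 0.20), lower in 11 of 11 cultures. Interferon-stimulated genes fell together: 10 of 11 were lower and none higher, with a median of -0.94, led by *Ifit3* (-1.63 ± 0.21), *Ifit1* (-1.17 ± 0.25), the transcription factor *Irf7* (-1.16 ± 0.19) and *Ifit2* (-1.16 ± 0.35). Their levels were low, at most 14.4 CPM for *Ifit3* in the stress response high cells. In thinned cells *Irf7* did not pass the test (-0.37, adjusted p = 0.362).

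For *Clec4e* and *Procr*, known partners exist that the score did not use. Mincle is expressed with *Clec4d* (MCL), which stood at 832, 1003 and 1261 against 543, 590.1 and 766 without overlap (0.68 ± 0.05), and *Clec4n*, Dectin-2, was also higher (0.60 ± 0.08). *Clec12a* (-0.66 ± 0.07) and the shared adaptor *Card9* (-0.47 ± 0.13) were lower, so that 3 of 8 genes of this list rose and 3 fell (median 0.03). Of 11 coagulation genes, with which the protein C receptor belongs, 4 were higher and 3 lower (median 0.25). *F5* (3.79 ± 0.29), *F10* (1.86 ± 0.41) and tissue factor *F3* (1.64 ± 0.41) were higher but at medians of 3.79, 3.63 and 1.64 CPM. *F13a1*, the transglutaminase of clots and a marker of resident macrophages, fell to 17.8, 103 and 241 from 84.8, 472 and 600.3 (-1.97 ± 0.18).

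Lipid-associated macrophage genes were higher in 12 of 14 cases and lower in 1, *Apoe*, with a median of 0.83. Beside *Mmp12* they included the fatty acid carrier *Fabp4* (2.06 ± 0.34), the lectin *Lgals3* (1.76 ± 0.13) and the lipid droplet protein *Plin2* at 343, 672 and 1014 against 110.1, 195 and 359.8 (1.65 ± 0.10). Genes of scavenger and resident macrophages moved the opposite way, with 10 of 12 lower and none higher (median -1.07). *Mrc1*, the mannose receptor, stood at 94.6, 504 and 753 against 270.3, 1423 and 1551 (-1.68 ± 0.12). The transcription factor *Maf* stood at 83.3, 405 and 703 against 227, 1030.4 and 2309 (-1.73 ± 0.13). Both were lower in 11 of 11 cultures, but their ranges overlapped because both were low in Dmp1KO. *Vsig4* (-1.98 ± 0.18) and *Cd163* (-2.23 ± 0.33) fell too. Within the macrophage markers themselves, *Aif1* (-1.44 ± 0.13), *Fcgr1* (-1.32 ± 0.13) and *Adgre1*, which encodes F4/80 (-1.10 ± 0.10), were lower and *Cd14* (1.04 ± 0.16) was higher, 8 lower and 3 higher of 11. Among 7 osteoclast genes tested, 3 were higher and 2 lower (median -0.08). The fusion receptor *Dcstamp* (2.23 ± 0.34) and the protease *Ctsk* (1.08 ± 0.32) were among those that rose.

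Of 21 lysosome and autophagy genes, 12 were higher and 5 lower (median 0.16), with the protease *Ctsl* (1.31 ± 0.10), *Gla* (0.96 ± 0.09) and *Gabarapl1* (0.85 ± 0.06) among those that rose. Sterol synthesis was lower in 11 of 19 genes and higher in 1 (median -0.27), among them *Stard4* (-0.86 ± 0.13), *Idi1* (-0.85 ± 0.16) and *Mvk* (-0.70 ± 0.12). Ribosomal protein genes were lower in 70 of 79 (median -0.25), nuclear genes of oxidative phosphorylation in 48 of 79 (median -0.15) and mitochondrially encoded genes in 12 of 13 (median -0.25), with 2, 5 and 0 higher. *Cox6a2*, a muscle-type subunit, was an exception at 6.82, 16.3 and 30.8 against 1.10, 2.85 and 9.29 (2.12 ± 0.17). All 20 S phase genes and all 20 genes of G2 and mitosis were lower (medians -1.34 and -1.95). Of 7 MHC class II genes, 3 were lower (median -0.76).

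**Figure D4:**
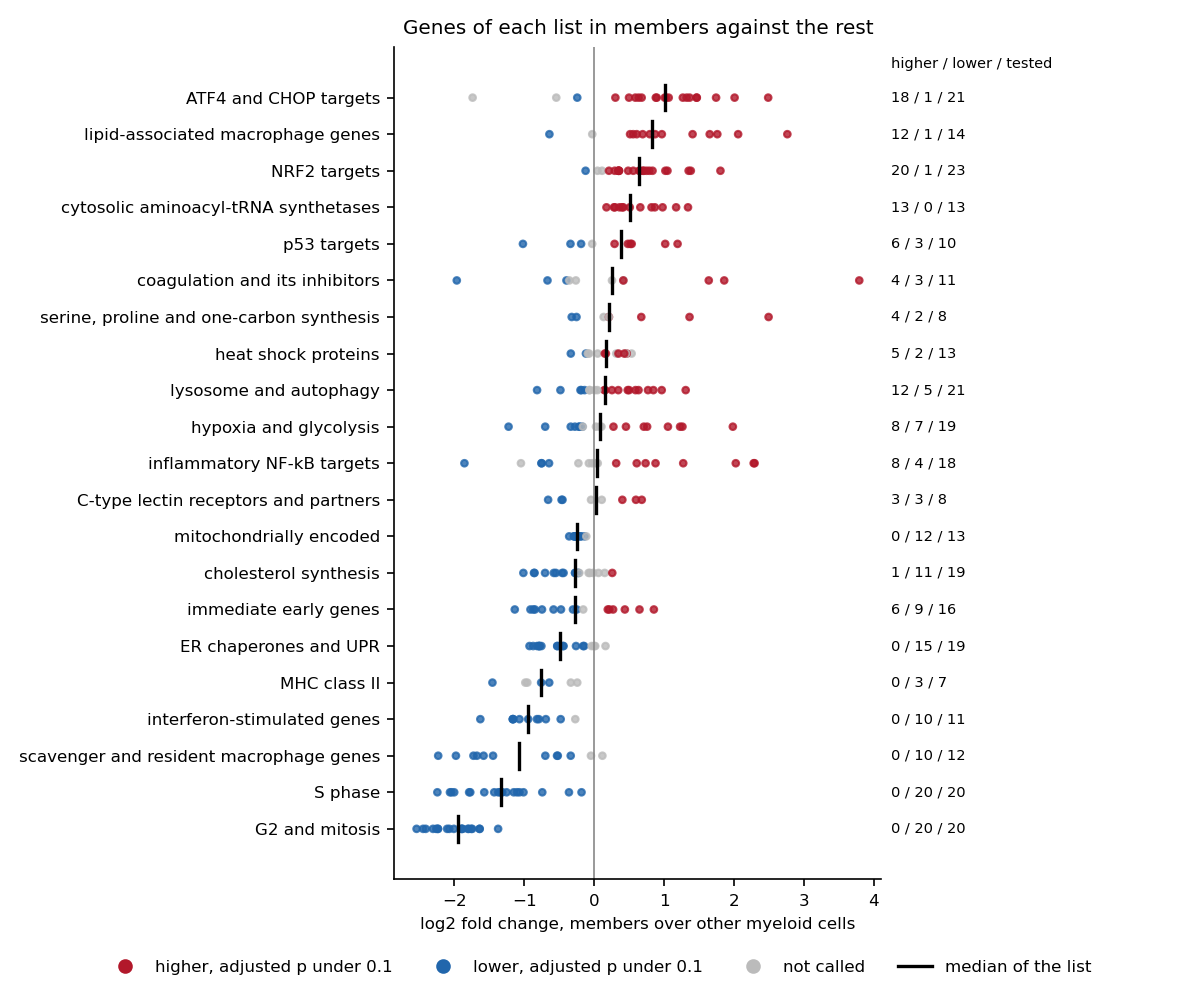
Log2 difference of each gene between stress response high and other myeloid cells, by list, with points colored by call, a black bar at the median and the counts of higher, lower and tested genes beside each list. ATF4 targets, tRNA charging, NRF2 targets and lipid-associated genes lie to the right of 0, and chaperones of the endoplasmic reticulum, interferon-stimulated, scavenger and cell cycle genes to the left.

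The lists differed in how their sums changed along the score. When the myeloid cells of each culture were split by score into 10 bins of equal size, the summed level of the ATF4 and CHOP targets was 1061 CPM in bin 1, the lowest, 1750 in bin 9 and 2806 in bin 10, the stress response high cells (medians over 11 cultures). That of the NRF2 targets was 36229 in bin 1, 55910 in bin 9 and 69937 in bin 10. That of the NF-kB list was 2749, 2238 and 1906 in the same bins. This sum adds unlike genes: of 18 tested in stress response high cells, 8 were higher and 4 lower, the abundant *Ccl2* among the lower. In the WT cultures only 56.1 to 61.3% of the myeloid cells had a score above 0. The lowest bins there thus held cells tied at 0, which the score does not order. The step from bin 9 to bin 10 was larger for the ATF4 list than the whole rise before it, and smaller for the NRF2 list.

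By genotype, the level of the score over all myeloid cells, which the choice of a fixed 10% does not set, was 2.90 ± 0.33 per 10000 in WT (SD, n = 3), 2.89 ± 0.30 in Fgf23cKO (n = 3), 2.77 ± 0.09 in Dmp1KO (n = 2) and 2.39 ± 0.12 in Dmp1KO/Fgf23cKO (n = 3). The score is what chose the cells, so these levels are a description, with no test. The Dmp1KO/Fgf23cKO cultures did not overlap with those of WT or Dmp1KO. The difference of Dmp1KO/Fgf23cKO from WT was -0.509 per 10000, against SDs of 0.12 and 0.33.

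What made up the score differed between genotypes, again as a description since these genes chose the cells. In stress response high cells, *Slc7a11* was at 555, 456 and 596 in the WT cultures, 247, 305 and 267 in Fgf23cKO, 156 and 158 in Dmp1KO and 313, 395 and 362 in Dmp1KO/Fgf23cKO. *Ddit3* was at 329.8, 249 and 284 in WT, 432, 302 and 449.5 in Fgf23cKO, 486 and 506 in Dmp1KO and 198, 240.3 and 311 in Dmp1KO/Fgf23cKO. Dmp1KO was thus lowest for *Slc7a11* and highest for *Ddit3*. *Trib3* averaged 41.3, 64.2, 91.0 and 58.8 in the same order of genotypes, *Srxn1* 368, 323, 214 and 248, *Procr* 158, 154, 85.1 and 61.2, and *Clec4e* 217, 176, 66.8 and 97.5. *Ddit3* gave the most score UMIs in 148 of 258 and 153 of 242 cells of the Dmp1KO cultures.

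Whether stress response high cells differ from the other myeloid cells by the same amount in each genotype was tested with the interaction of genotype and class in the same fit. It was called for 680 of 12791 genes (5.32%), or 675 of 12785 without the 6 score genes. The count of 680 ranged from 148 without the second Dmp1KO culture, 267 without the third, 439 without the third WT culture and 442 without the first Dmp1KO/Fgf23cKO culture to 1480 without the second Fgf23cKO culture. The 5 genes with the smallest adjusted p were *Fabp5*, *Plpp3*, *Fabp4*, *Slamf7* and *Slc15a3*. *Fabp5*, a fatty acid carrier, was 0.93 higher on the log2 scale in the stress response high cells of WT, 1.46 in Fgf23cKO, 0.79 in Dmp1KO/Fgf23cKO and -0.46 in Dmp1KO. In Dmp1KO it stood at 2872 and 3235 in the stress response high and 4063 and 3598 in the other myeloid cells, against 2474, 2213 and 2401 and 1239, 1142 and 1253 in WT. The other myeloid cells of Dmp1KO were thus already above the stress response high cells of WT. *Plpp3* had differences of 3.16, 2.72, 0.65 and 2.49 in WT, Fgf23cKO, Dmp1KO and Dmp1KO/Fgf23cKO, and *Fabp4* of 3.33, 2.58, -0.30 and 1.92. Those of the immune receptor *Slamf7* were 2.53, 2.22, 0.37 and 1.78, and those of the lysosomal peptide carrier *Slc15a3* 1.89, 1.40, 0.37 and 1.07. In UMIs not used for the choice, the score itself differed least in Dmp1KO, by 2.25 on the log2 scale. It differed by 3.10 in WT, 2.84 in Fgf23cKO and 2.76 in Dmp1KO/Fgf23cKO. The part of this in the interaction was not tested. For all 5 genes the smallest value was that of Dmp1KO.

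The same pattern held for *Mmp12* (3.78, 2.94, 0.84 and 2.77, adjusted p of the interaction 0.00154) and *Lgals3* (2.15, 1.91, 0.73 and 1.88, adjusted p 0.000107), both from the lists. *Mmp12* stood at 2108 and 1683 in the other myeloid cells of Dmp1KO and at 301, 172 and 282 in those of WT. In the stress response high cells it stood at 4072 and 3367 and 4049, 2833 and 3511. So the stress response high cells of the 2 genotypes overlapped, and their other myeloid cells did not. Of 14 lipid-associated genes the interaction was called for 12, with median differences of 1.12, 1.17, 0.14 and 0.93 in WT, Fgf23cKO, Dmp1KO and Dmp1KO/Fgf23cKO, and of 23 NRF2 targets for 10 (0.88, 0.66, 0.27 and 0.52). The interaction was also called for 9 of 19 genes of hypoxia and glycolysis (0.38, -0.03, -0.09 and 0.15). Of 12 scavenger and resident genes it was called for 6 (-1.03, -1.45, -1.48 and -0.75), and there the fall was larger in Fgf23cKO and Dmp1KO, which were nearly equal. Of 7 MHC class II genes it was called for 4 (-0.79, 2.68, -1.70 and -0.69). The Fgf23cKO cultures were unlike here. Their summed list stood at 31.8, 1045 and 105 CPM in the stress response high cells, against 88.1, 62.6 and 88.1 in the others. In the second of them, 5 of 33 cells held 1343 of the 1379 UMIs. The interaction was called for 4 of 21 ATF4 targets (1.21, 0.89, 0.99 and 0.89) and for none of the 13 genes of tRNA charging, the 11 interferon-stimulated genes or the 20 S phase genes, where the share over all genes was 5.32%. Differences between these lists were not tested. Without cycling cells, 89 genes were called in all, and *Fabp5* was no longer among them (adjusted p = 0.304), whereas *Plpp3* (0.00772), *Fabp4* (0.00743), *Slamf7* (0.00613) and *Slc15a3* (0.00357) were.

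**Figure D5:**
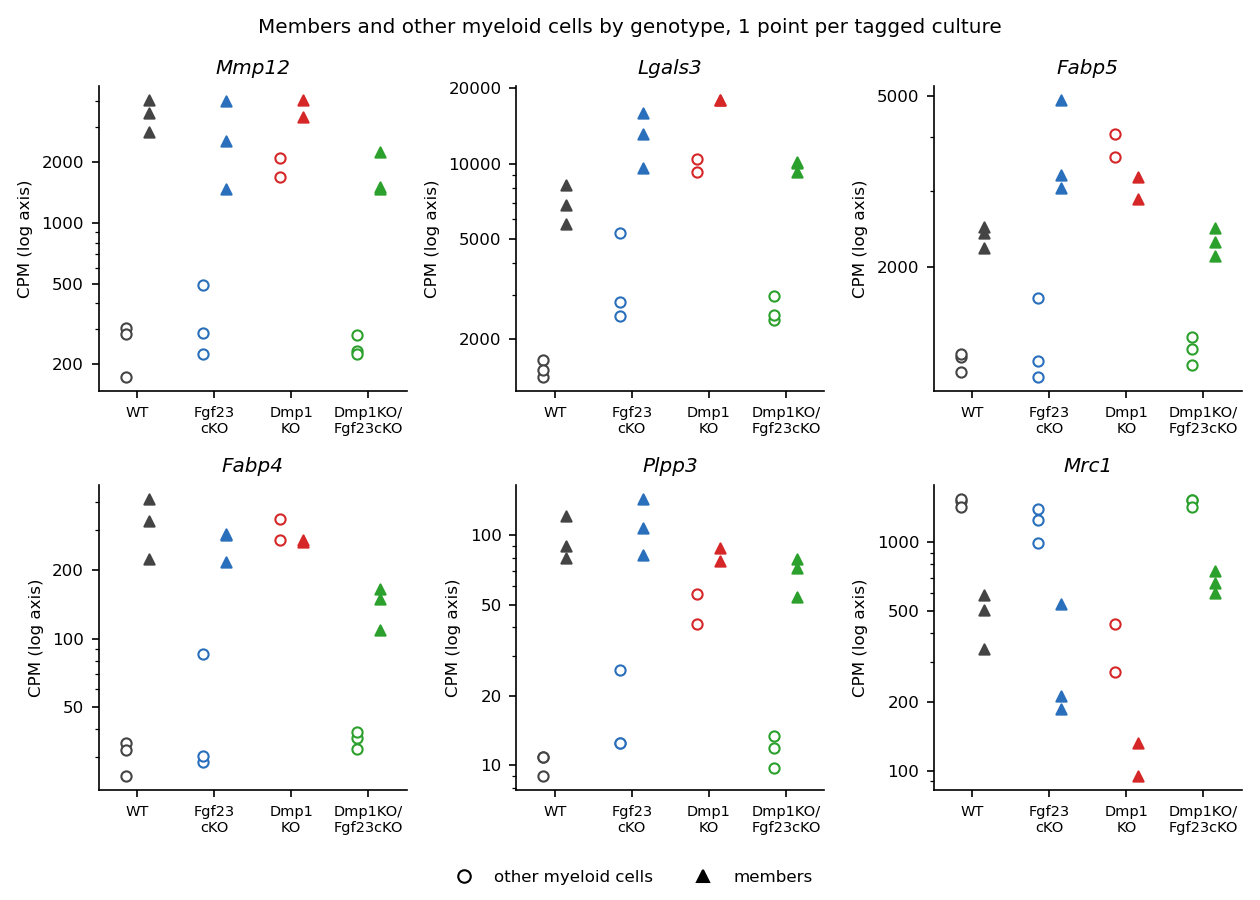
Levels (CPM, log axis) of Mmp12, Lgals3, Fabp5, Fabp4, Plpp3 and Mrc1 in each tagged culture by genotype, with open circles for the other myeloid cells and filled triangles for the stress response high cells. The open circles of Dmp1KO lie close to its triangles for the first 5 genes, and Mrc1 is lowest in Dmp1KO in both.

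Between genotypes, the stress response high cells themselves were compared over 9915 genes. Against WT, 3764 genes (38.0%, 19.1% higher and 18.9% lower) were called in Dmp1KO, 1627 (16.4%, 8.70% higher and 7.71% lower) in Fgf23cKO and 2477 (25.0%, 13% higher and 12% lower) in Dmp1KO/Fgf23cKO, and 3069 (31.0%, 15.7% higher and 15.3% lower) were called between Dmp1KO/Fgf23cKO and Dmp1KO. Without the second Dmp1KO culture the first and last of these counts were 2389 and 1283, without the third 2461 and 1433, and that of Fgf23cKO was 908 without the second and 979 without the third WT culture. The median of all genes lay between -0.01 and 0.05 on the log2 scale in each. With every cell thinned to 3000 UMIs, which sets 1 depth for all genotypes, the 4 counts were 1718, 352, 886 and 1187 in the same order. The reaction differs with genotype and cannot be told apart from it, and the comparisons with WT share the WT cultures.

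Scavenger and resident macrophage genes were lower in Dmp1KO than in WT for 8 of 11 genes and higher for none (median -1.50), and between Dmp1KO/Fgf23cKO and Dmp1KO they were higher for 8 and lower for none (median 1.83). *Marco*, a scavenger receptor, stood at 529.5, 607 and 503 in WT, 134, 658 and 191 in Fgf23cKO, 16.3 and 24.4 in Dmp1KO and 47.9, 90.9 and 168 in Dmp1KO/Fgf23cKO, a log2 difference of -4.69 ± 0.64 between Dmp1KO and WT. *Mrc1* stood at 94.6 and 132 in Dmp1KO and 340.4, 504 and 589 in WT. Both Dmp1KO cultures lay below all WT cultures for either gene, also among the other myeloid cells, where *Marco* was at 11.8 and 11.8 against 339, 450.2 and 509. Lipid-associated genes were higher in Dmp1KO than in WT for 9 of 14 and lower for 2 (median 0.58). Markers of other cell types moved with genotype as well: in the stress response high cells, monocyte markers summed to 82.9 and 79.4 CPM in Dmp1KO against 21.2, 23.9 and 18.9 in WT, and osteoclast markers to 1429 and 1473 against 663, 620.4 and 719. Their part in the differences between Dmp1KO and WT was not tested. NRF2 targets were lower for 16 of 23 and higher for 2 (median -0.60), in Dmp1KO/Fgf23cKO against WT lower for 12 and higher for 1 (median -0.30), and in Fgf23cKO against WT lower for 5 and higher for 1 (median -0.19).

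ATF4 targets were split in Dmp1KO against WT, with 5 of 18 higher and 4 lower (median 0.19), as were the genes of tRNA charging (5 and 2 of 13, median 0.10). NF-kB target genes were lower in Dmp1KO for 6 of 15 and higher for none (median -0.39), and higher in Dmp1KO/Fgf23cKO than in Dmp1KO for 10 and lower for none (median 1.39). In Dmp1KO/Fgf23cKO against WT, 7 were higher and 3 lower (median 0.96). Ribosomal protein genes were higher in Dmp1KO than in WT for 60 of 78 and lower for 4 (median 0.66), and lower in Dmp1KO/Fgf23cKO than in Dmp1KO for 76 (median -0.72).

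The genes with the largest differences between genotypes among those whose cultures did not overlap included several that were nearly absent in 1 genotype. *Slc16a9*, a carrier of the monocarboxylate family, stood at 57.5, 68.2 and 78.0 in WT and 1.06 and 0.955 in Dmp1KO, with 26.4, 21.7 and 24.9 in Dmp1KO/Fgf23cKO (-5.97 ± 0.38 for Dmp1KO against WT, adjusted p = 3.54e-07). *Ednrb*, the endothelin receptor B, stood at 49.9, 45.7 and 70.6 in WT and 1.24 and 2.48 in Dmp1KO (-4.83 ± 0.40), and at 39.2, 43.4 and 49.9 in Dmp1KO/Fgf23cKO. The 2 genes were thus lowest in Dmp1KO and intermediate or near WT in Dmp1KO/Fgf23cKO. *Hal*, histidine ammonia lyase, stood at 0.694, 0 and 0.639 in Dmp1KO/Fgf23cKO, 26.6 and 43.9 in Dmp1KO and 157, 98.7 and 122 in WT (-7.97 ± 0.53 for Dmp1KO/Fgf23cKO against WT). *Mamdc2* stood at 88.4 and 102 in Dmp1KO and 5.90, 1.81 and 1.92 in Dmp1KO/Fgf23cKO (-4.81 ± 0.42). Both genes showed the same order in the other myeloid cells, with *Hal* at 1.59, 1.11 and 0.857 and 82.9, 77.0 and 82.6 in Dmp1KO/Fgf23cKO and WT.

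The predicted gene *Gm20658* was at 0 in both Dmp1KO cultures, in the stress response high and in the other myeloid cells alike, and at 33.3, 20.3 and 27.9 in the stress response high cells of WT. Taking 3 counts over the Dmp1KO group as the limit, WT was at least 98.6-fold and Dmp1KO/Fgf23cKO at least 54.9-fold higher, which covers counting error only. *C77080* showed the reverse in WT, at 0, 0 and 1.64, against 28.7, 28.0 and 39.8 in Fgf23cKO and 37.0 and 36.3 in Dmp1KO. The rest of the named genes, *Ccdc162*, *Gm17268*, *Kazn*, *Gm26542*, *Rapgef4* and *1500015L24Rik*, had their highest mean in WT. *Ccdc162*, for example, stood at 121, 61.7 and 112 in WT, 8.52, 8.34 and 22.8 in Fgf23cKO and 9.37, 5.43 and 5.11 in Dmp1KO/Fgf23cKO. These genes followed the genotype in the other myeloid cells too.

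*Dmp1*, read over all cells as a check of the labels, had 3530 UMIs in 5604 WT cells and 4665 in 2923 Fgf23cKO cells, 5 in 6439 Dmp1KO cells and 175 in 2827 Dmp1KO/Fgf23cKO cells. In stress response high cells it had 10, 18, 0 and 0 UMIs in the same order. *Fgf23* had 9, 10, 2 and 1 UMIs over all cells, too few to check its deletion.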

How the data were processed

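Single-cell RNA-Seq libraries were analysed from the counts the authors deposited, which are raw numbers of UMIs for each gene in each cell, made with Cell Ranger after demultiplexing by culture tag; the submitters' processing notes also name Seurat and mm10. The 32285 gene identifiers were summed to 32245 symbols, and tag counts were left out. Total UMIs per tagged culture ranged from 9518928 to 72482185. Myeloid and stress response high cells were chosen as in the report, with no doublet caller. Counts were summed per culture and class (at least 10 cells) and tested in edgeR 4.0.16 (R 4.3.3) with TMM factors, filterByExpr and Benjamini-Hochberg adjustment at 0.1; DESeq2 1.42.0 was an alternative. Other values were computed with scipy 1.17.1, pandas 2.3.3 and numpy 2.4.6 (Python 3.11.15). The tests were checked on simulated data. Promoters were RefSeq's.

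The members and the 37 gene lists were chosen with earlier results of these data known. Named genes were the 6 score genes, the 15 largest rises and 10 largest falls with 1 direction in every culture and a mean of at least 20 CPM, up to 4 called genes per list with the largest change, 5 genes per genotype comparison without overlap, the 5 smallest adjusted p of the interaction, and *Dmp1* and *Fgf23*. Genes that a count of 5 or fewer singles out (*Jdp2*, *G6pdx*, *Apoe*), and *Mmp12* and *Lgals3* in the comparison by genotype, were named after their values were seen. A few genes that the rule names are not reported here. Alternatives were another normalization, no filter, DESeq2, a threshold of 0.05, each culture left out, untagged samples included, other shares of cells (5% and 20%), sums of at least 20 cells, cells thinned to 3000 UMIs (396 shallower cells left out), a mitochondrial limit of 10%, a score without *Procr* and *Clec4e*, and the replicate number as a block.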

Additional observations from a re-analysis of the deposited data

Results flagged for a closer look

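A difference between genotypes in the contrast of stress response high with other myeloid cells was called for 675 of 12785 genes, the 6 score genes not counted, by the interaction of genotype and class in edgeR's quasi-likelihood test with Benjamini-Hochberg adjustment, and the 5 with the smallest adjusted p are given here. The adjusted p was 3.89e-07 for *Fabp5*, 2.51e-06 for *Plpp3*, 1.15e-05 for *Fabp4*, 1.15e-05 for *Slamf7* and 2.67e-05 for *Slc15a3*. In each of them the 2 Dmp1KO cultures had the smallest log2 difference, -0.46 for *Fabp5*, 0.65 for *Plpp3*, -0.30 for *Fabp4*, 0.37 for *Slamf7* and 0.37 for *Slc15a3*, against 0.79 to 3.33 in the other genotypes. Without cycling cells *Fabp5* lost its call (adjusted p = 0.304). Genotype and droplet reaction cannot be told apart in these values. In UMIs not used for the choice, the score also differed least in Dmp1KO, by 2.25 against 2.76 to 3.10. The part of this in the interaction was not tested. No group held enough cultures for a search for single samples that stand apart, since that needs at least 4.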

How the results depend on the processing

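Of 398 values of the main results under an alternative, 361 were unchanged in direction, call or, for counts, within 1.5 times. Thinning cells to 3000 UMIs lowered the genes higher and lower in stress response high cells to 1469 and 1667, and of 6019 calls that could be tested 3041 kept call and direction and 267 turned. The interaction, called for 680 genes, was called for 1608 with no filter on low counts, 318 at an adjusted p under 0.05, 399 with the top 5% and 1115 with the top 20% of cells, 259 in thinned cells, 89 without cycling cells and 148 to 1480 with a culture left out. For Dmp1KO against WT these counts were 2210, 5661, 1718 and 2371 (top 5%, top 20%, thinned, without cycling cells) and 2389 to 4160 with a culture left out, for Fgf23cKO against WT 586, 3439, 352, 548 and 908 to 2227, and for Dmp1KO/Fgf23cKO against Dmp1KO 1286, 4801, 1187, 1366 and 1283 to 3685. For Dmp1KO/Fgf23cKO against WT they were 1398 with the top 5%, 886 thinned and 1288 without cycling cells. Genes per cell differed by -0.18 on the log2 scale with untagged samples (p = 0.00391, exact permutation test) and by -0.0472 to -0.0256 with a culture left out, past the threshold without the third Dmp1KO/Fgf23cKO culture (-0.0472, p = 0.00977, exact permutation test). With untagged samples, sample 4 of Dmp1KO/Fgf23cKO alone stood at -1.80 and the median of the 15 samples at -0.0536. The score of Dmp1KO/Fgf23cKO minus Dmp1KO was -0.523 as a mean over cells, and *Psat1* turned to 0.32 without cycling cells. The cause was not tested. Of 2984 values of 126 named genes, 2937 were unchanged, 41 lost and 5 gained the call and 1 turned.

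Pairing of cultures by replicate number was not seen: deviations of same-numbered cultures from their genotype mean correlated at -0.12 to 0.22 (15 pairs, 6383 genes). Deviations from the mean of so few cultures cancel out within a genotype. The pairs are therefore not independent, and the check cannot exclude pairing. With the replicate number as a block, 3521, 1433, 2332 and 2651 genes were called for Dmp1KO, Fgf23cKO and Dmp1KO/Fgf23cKO against WT and Dmp1KO/Fgf23cKO against Dmp1KO. Depth limits the choice of single cells, in WT as in the other genotypes. The share of stress response high cells chosen by both random parts of their UMIs was 64.0% in WT, 76.1% in Fgf23cKO, 62.6% in Dmp1KO and 73.4% in Dmp1KO/Fgf23cKO. Having 2 Dmp1KO cultures limits each comparison with that genotype.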

Other observations

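MHC class II UMIs (*H2-Aa*, *H2-Ab1*, *H2-Eb1*, *Cd74*, *H2-DMa*, *H2-DMb1* and *Ciita* summed) stood at 1045 CPM in the stress response high cells of the second Fgf23cKO culture, and at 31.8 to 118 in those of the other 10 tagged cultures. In that culture 5 of 33 cells held 1343 of the 1379 UMIs, and 1 cell held 830. The other myeloid cells of the culture stood at 62.6 CPM, and those of the Dmp1KO cultures at 285 and 293. When the myeloid cells were split by score into 10 bins of equal size, the lowest bin held 768 and 756 CPM in the Dmp1KO cultures.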
